A study of Rattus norvegicus with 6 samples.

Results

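Genes of 3 protein stress responses were followed in the kidney of rats given 1-amino-2,4-dibromoanthraquinone (ADBAQ), a brominated anthraquinone used in dye manufacture: the ATF4 response to amino acid and translational stress, the unfolded protein response of the endoplasmic reticulum (ER), and the heat shock response of the cytosol and mitochondria. The 40 genes were taken from a fixed list of 10, 20 and 10 genes per branch, and each was read through the brightest of the array probes whose identifier is a RefSeq transcript of that gene. Probes were matched for 37 of the 40 genes. Manf, Edem1 and Dnajb1 had no matched probe and are not analysed here. The 37 genes stand among 12007 genes tested, and each was well above background on all 6 arrays, so no member entered through 1 group alone.

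Both groups were male Sprague-Dawley rats (Crl:CD(SD)) that were 5 weeks old when bought and were kept on a basal diet. One group of 3 received ADBAQ at 1000 mg/kg/day for 4 weeks and the other group of 3 received the vehicle, corn oil, for the same time. Total RNA of the renal cortex, the outer kidney zone that holds most proximal tubules and glomeruli, was labelled with Cy3 and hybridised to 1-colour Agilent rat arrays, 1 rat per array. Values below are log2 signals relative to the 75th percentile of the same array, so that 0 marks a probe at that percentile and 1 unit is a 2-fold step.

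Cells that run short of an amino acid, or whose ER fills with misfolded protein, switch on kinases that phosphorylate the translation factor eIF2. General translation then slows while the transcription factor ATF4 is translated more, and ATF4 drives genes for amino acid synthesis and, under lasting stress, for cell death. The ER has its own sensors, PERK (Eif2ak3), IRE1 (Ern1) and ATF6, which raise chaperones, folding enzymes and the machinery that returns misfolded protein to the cytosol for degradation. Heat shock genes answer misfolding in the cytosol through the factor HSF1. Proximal tubule cells carry a heavy load of membrane and secreted protein, and the ATF4 and ER branches are well-known parts of the response of these cells to toxic injury.

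With limma (moderated test, p-values adjusted by Benjamini-Hochberg across the 12007 genes), 0 of the 37 members passed an adjusted p of 0.05, where 0.291% of all genes tested did. At an unadjusted p under 0.05 there were 8 members, 5 higher and 3 lower, which is 21.6% of the 37 beside 19.4% of all genes (8.94% higher and 10.5% lower). The signals of the 2 groups were fully separate in 12 members (32.4%), beside 27.6% of all genes. Of these, 9 were higher with ADBAQ and 3 lower, where 12.7% and 14.8% of all genes separated in those directions. Counted over both directions, these shares lie near those of all genes. By direction, 24.3% of the 37 members were separate and higher and 8.11% separate and lower, and whether that split differs from the one over all genes was not tested. The median difference, ADBAQ minus corn oil, was 0.052 over the members and -0.011 over all genes, and the median size of a difference regardless of sign was 0.13 in both. The 95% interval of the difference included 0 in 29 members, and in 35 it lay wholly within 1 log2 unit on either side of 0. Trib3 and Atf3 were the 2 members whose interval reached beyond a 2-fold change.

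The 75th percentile of the processed signal was 1126 to 1177 on the corn oil arrays and 1279 to 1306 with ADBAQ, and the share of probes detected above background ranged from 69.0% to 72.3%. Precision is limited by having 3 arrays a group. All corn oil arrays lay on 1 slide, scanned together, and all ADBAQ arrays on another; treatment therefore cannot be told apart from slide or scan. The 10 proximal tubule markers, such as Slc34a1, Lrp2 and Aqp1, were all measured. Their signals summed to 1875 to 1919 times the 75th percentile on the corn oil arrays and 1693 to 1758 times on the ADBAQ arrays. Of the 10, 0 passed the test, and 4 (40%), all lower, had an unadjusted p under 0.05, where 10.5% of all genes were lower. Medulla markers summed to 20.7 to 22.4 with corn oil and 16.6 to 17.4 with ADBAQ. Of their 5 differences 3 were positive and 2 negative, and the brightest marker, Krt7, had -0.41. Of the 11 cell type lists examined, red cell transcripts alone had members past the threshold: 4 of 8 rose and 0 fell, and their summed level was 459 to 515 with corn oil and 791 to 922 with ADBAQ. Collecting duct markers had 0 of 8 past the threshold, with 5 positive differences and 3 negative. In 4 of the 8 (50%) the groups were separate, all higher, where 12.7% of all genes were separate and higher. An unadjusted p under 0.05 was seen in 3 (37.5%), all higher, where 8.94% of all genes were higher. Their sums were 154 to 212 with corn oil and 167 to 180 with ADBAQ. Leukocyte markers had 0 of 9 members past the threshold and 2 (22.2%) at an unadjusted p under 0.05, beside 19.4% of all genes. Itgam, 1 of these 2, was well above background on only 1 of 3 corn oil arrays. The differences of the 9 ran from -0.78 (Cd3e) to 1.40 (Cd52), with 6 positive and 3 negative. Leukocyte sums were 75.4 to 88.9 with corn oil and 89.1 to 99.4 with ADBAQ. Plasma cells, whose large ER gives them high levels of ER chaperones, had 3 of 7 markers in the test, 0 past the threshold and 0 at an unadjusted p under 0.05, with sums of 3.83 to 4.52 and 4.52 to 5.13. The leukocyte and plasma cell sums mostly follow 1 bright gene each, Lyz2 (mean 6.28 with corn oil) and Sdc1 (1.85). The next brightest of each list were Cd68 (1.05) and Pou2af1 (-1.19). The part of red cell, leukocyte or plasma cell RNA in the values of the stress genes was not tested, and in a piece of tissue fewer cells of a type cannot be told from less RNA per cell.

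Promoter sequences place the 3 branches beside their known control elements. RefSeq promoters (assembly GRCr8, 250 bases before to 50 after the start) were found for 34 of the 40 genes and searched on both strands. The ER stress element (ERSE, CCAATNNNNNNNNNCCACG), bound by ATF6 and XBP1 with NF-Y, occurred in 7 of 16 ER branch promoters (Dnajc3, Canx, Hspa5, Xbp1, Calr, Hsp90b1 and Creld2), in 0 of 9 of the ATF4 branch and 0 of 9 of the heat shock branch, and in 0.0765% of all 27457 promoters. The core of the C/EBP-ATF response element (TGATGNAA), to which ATF4 binds with C/EBP partners, occurred in Trib3 and Chac1 of 9 ATF4 branch promoters, in Herpud1 of 16 ER branch promoters, in 0 of 9 of the heat shock branch and in 3.82% of all. The heat shock element of 3 alternating units (GAANNTTCNNGAA or its reverse complement TTCNNGAANNTTC), bound by HSF1, occurred in 5 of 9 heat shock promoters (Hspd1, Hspa8, Hsph1, Hspe1 and Dnaja1), in 0 of the promoters of the other branches and in 0.736% of all. The core of the unfolded protein response element (TGACGTGG) was in none of the 34 windows and in 0.637% of all. A match describes letters in a window and does not show that a factor binds there.

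The 2 ATF4 branch promoters with the C/EBP-ATF core are shown first, together with Herpud1 of the ER branch, since these are the members with a match. They lie at chr3:161275484-161275783 (minus strand), chr3:126795881-126796180 (plus strand) and chr19:10614658-10614957 (minus strand) in GRCr8. Capitals mark the element.
Trib3: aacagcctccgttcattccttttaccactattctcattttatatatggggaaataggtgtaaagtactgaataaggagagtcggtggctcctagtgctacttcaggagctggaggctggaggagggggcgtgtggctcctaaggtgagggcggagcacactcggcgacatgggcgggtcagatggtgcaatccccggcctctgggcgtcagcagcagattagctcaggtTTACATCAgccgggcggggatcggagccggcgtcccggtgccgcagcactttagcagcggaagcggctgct
Chac1: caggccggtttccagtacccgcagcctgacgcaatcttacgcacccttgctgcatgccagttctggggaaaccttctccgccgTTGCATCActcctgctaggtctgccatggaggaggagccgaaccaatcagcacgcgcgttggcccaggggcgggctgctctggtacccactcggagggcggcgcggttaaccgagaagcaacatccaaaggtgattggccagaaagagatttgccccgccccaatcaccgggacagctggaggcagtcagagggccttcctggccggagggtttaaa
Herpud1: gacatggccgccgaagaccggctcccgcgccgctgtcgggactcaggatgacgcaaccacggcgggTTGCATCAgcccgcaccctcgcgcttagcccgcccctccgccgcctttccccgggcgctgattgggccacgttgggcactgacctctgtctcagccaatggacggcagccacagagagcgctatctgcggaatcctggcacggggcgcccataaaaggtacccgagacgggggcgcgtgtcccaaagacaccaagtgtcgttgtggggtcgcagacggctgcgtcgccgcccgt

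Among the transcription factors of the ATF4 branch, the mRNA for ATF4 itself was slightly lower with ADBAQ and that for ATF3 higher, and neither passed the test. Atf4 read 4.56, 4.55 and 4.51 on the corn oil arrays and 4.27, 4.51 and 4.42 on the ADBAQ arrays. The groups were separate by only 0.0009, with ADBAQ replicate 1 the lowest, and the difference was -0.14 ± 0.076 (SE, n = 3 per group, adjusted p = 0.36). Without scaling between arrays it was 0.022, and with normexp background correction -0.27 (adjusted p = 0.0747, the smallest over the alternatives). ATF4 is controlled mostly through translation of its mRNA, which these arrays do not measure.

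Atf3, an early response factor downstream of ATF4 and of many other stresses, read -0.86, -0.97 and -0.89 with corn oil and -0.85, 0.23 and -0.074 with ADBAQ. ADBAQ replicates 2 and 3 lay well above every corn oil array, while replicate 1 lay only 0.0099 above the highest of them. The difference was 0.68 ± 0.27 (adjusted p = 0.25), and it was 0.98 without ADBAQ replicate 1 (adjusted p = 0.105) and 0.45 without ADBAQ replicate 2 (adjusted p = 0.477).

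Ddit3 encodes CHOP, the factor tied to cell death under lasting ER stress. Its signals were 2.65, 2.91 and 2.82 with corn oil and 2.54, 2.93 and 2.97 with ADBAQ. The groups overlapped, the difference was 0.026 ± 0.14 and its 95% interval ran from -0.31 to 0.36 (adjusted p = 0.93).

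Cebpb, a C/EBP family factor that pairs with ATF4 and also answers to inflammation and hormones, was lower. It read 2.89, 2.44 and 2.31 on the corn oil arrays and 1.94, 2.07 and 2.03 on the ADBAQ arrays. All ADBAQ arrays lay below all corn oil arrays, by -0.54 ± 0.16 (1.45-fold, adjusted p = 0.17), and the spread was wider in corn oil (SD 0.30) than with ADBAQ (SD 0.070). A dimmer probe for Cebpb gave -0.44 ± 0.23.

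Trib3, a pseudokinase induced by ATF4 and CHOP that feeds back on both, had the largest difference of the 37 members except with normexp background correction, where it was 0.55 and Atf3 was 0.74. The corn oil arrays read -4.03, -4.02 and -4.33, and the ADBAQ arrays -3.81, -2.96 and -2.97, so the groups were apart and ADBAQ replicate 1 lay nearest to corn oil. The difference was 0.88 ± 0.25 (1.84-fold) with an adjusted p of 0.16, and it was 1.16 without ADBAQ replicate 1 (adjusted p = 0.078, the smallest for Trib3 when 1 array was left out; the largest was 0.36).

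Chac1, which degrades glutathione and is induced by ATF4, gave unlike values from its 2 tested probes. The brighter one read -1.05, -1.08 and -0.94 with corn oil and -0.90, -0.91 and -0.95 with ADBAQ, a difference of 0.11 ± 0.061 (adjusted p = 0.39) with a slight overlap. A far dimmer probe, described because of its value, well above background on 2 of 3 corn oil arrays and on all 3 ADBAQ arrays, read -6.42, -5.49 and -5.58 against -5.33, -4.19 and -4.69. It entered the test through the ADBAQ arrays, so no test of it is given. Which of the probes follows the Chac1 transcript was not tested.

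The enzymes of amino acid synthesis did not move as a block. Asns, which makes asparagine and is a classical ATF4 target, read -1.21, -0.77 and -1.05 with corn oil and -0.74, -0.56 and -0.55 with ADBAQ. Its groups lay apart by 0.032 between the nearest arrays, and the difference was 0.39 ± 0.13 (1.31-fold, adjusted p = 0.19). The serine pathway enzymes had values of the other sign.

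Psat1, the aminotransferase in the middle of serine synthesis, had an adjusted p of 0.14. It read 5.70, 5.67 and 5.63 on the corn oil arrays and 5.33, 5.50 and 5.36 on the ADBAQ arrays, with no overlap and a difference of -0.28 ± 0.067 (1.21-fold lower). Its other probe, much dimmer, gave -0.0017 ± 0.13. Phgdh, the entry enzyme of serine synthesis, gave -0.14 ± 0.082, and Psph, the phosphatase that ends the pathway, -0.13 ± 0.075, with overlap in both and a change of sign in both without scaling.

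By count, 5 of the 10 ATF4 branch genes had a positive difference and 5 a negative one. Their median was -0.054 beside -0.011 over all genes, a distance of -0.043. Scaling shifts all genes of an array alike, so this distance is necessarily the same without scaling (0.11 beside 0.15). The distance was -0.016 with quantile normalization, 0.0042 with normexp background correction and -0.065 without the detection filter. When 1 array was left out it ran from -0.072 (without corn oil replicate 1) to 0.015 (without ADBAQ replicate 1). The groups did not overlap in 6 of the 10 genes, 3 in each direction, beside 27.6% of all genes, and 5 of 10 had an unadjusted p under 0.05, beside 19.4%.

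**Figure D1:**
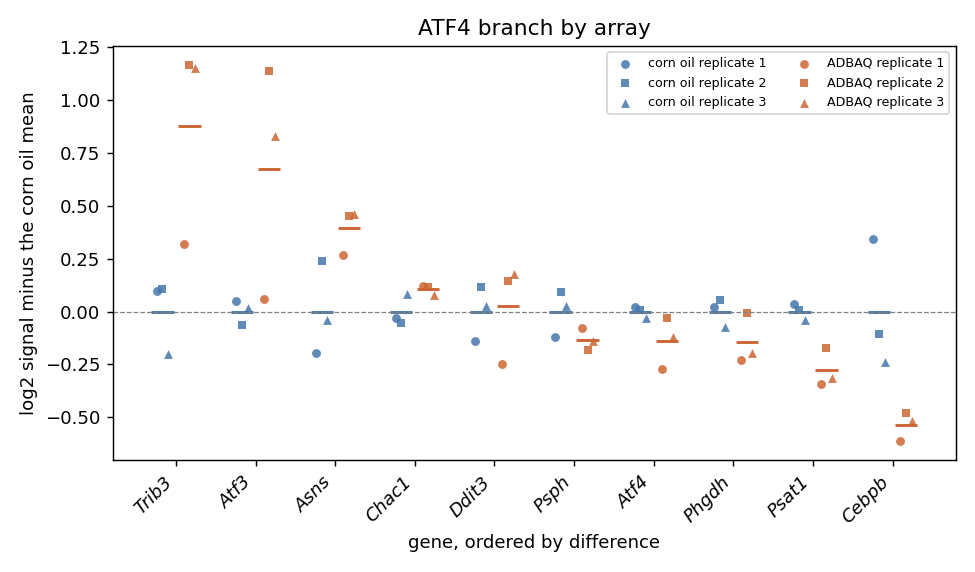
Log2 signal of each ATF4 branch gene on each array, with the mean of the 3 corn oil arrays subtracted; points are arrays, marked by replicate number, and short lines are group means. Trib3, Atf3 and Asns lie above the corn oil arrays, with ADBAQ replicate 1 the nearest to them, and Cebpb, Psat1 and Atf4 lie below.

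For the ER branch, promoters are shown of Hspa5, the central chaperone, of Hsp90b1, which has 2 ERSE matches, and of Dnajc3, whose groups were separate. They lie at chr3:38452766-38453065 (plus strand), chr7:23012244-23012543 (minus strand) and chr15:102432417-102432716 (plus strand). Capitals mark the ERSE, with its 9 spacer bases.
Hspa5: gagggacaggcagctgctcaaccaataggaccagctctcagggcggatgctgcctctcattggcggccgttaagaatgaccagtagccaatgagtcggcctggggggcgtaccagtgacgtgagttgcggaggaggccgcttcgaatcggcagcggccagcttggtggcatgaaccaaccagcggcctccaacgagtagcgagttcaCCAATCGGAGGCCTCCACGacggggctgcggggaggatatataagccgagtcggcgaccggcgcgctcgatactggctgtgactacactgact
Hsp90b1: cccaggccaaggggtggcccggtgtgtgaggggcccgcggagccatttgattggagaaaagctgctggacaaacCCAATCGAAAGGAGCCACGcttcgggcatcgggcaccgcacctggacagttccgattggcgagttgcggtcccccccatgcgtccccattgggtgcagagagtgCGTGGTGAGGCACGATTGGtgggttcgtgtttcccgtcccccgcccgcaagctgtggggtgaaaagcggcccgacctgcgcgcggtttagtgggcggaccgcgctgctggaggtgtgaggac
Dnajc3: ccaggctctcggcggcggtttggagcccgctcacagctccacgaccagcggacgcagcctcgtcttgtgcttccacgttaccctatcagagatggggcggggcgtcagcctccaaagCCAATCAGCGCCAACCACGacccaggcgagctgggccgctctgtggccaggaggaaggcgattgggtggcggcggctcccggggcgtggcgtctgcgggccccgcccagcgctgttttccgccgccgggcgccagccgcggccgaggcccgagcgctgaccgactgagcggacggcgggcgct

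The sensors of the ER branch gave small differences with overlap between groups. Eif2ak3, encoding the kinase PERK, had a difference of -0.13 ± 0.090 and a second probe with 0.14 ± 0.10, so the probes disagree in sign. Ern1, encoding IRE1, the enzyme that splices Xbp1 mRNA, had 0.15 ± 0.15. Xbp1 itself, the factor made from the spliced mRNA, read 2.21, 2.29 and 2.72 with corn oil and 2.08, 2.26 and 2.49 with ADBAQ. Its difference was -0.13 ± 0.17 (95% interval -0.55 to 0.28, adjusted p = 0.70) and turned positive without scaling. Spliced and unspliced Xbp1 were not told apart here.

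Hspa5 (BiP), the main ER chaperone and the usual readout of the unfolded protein response, did not separate the groups. It read 4.76, 5.13 and 5.30 with corn oil and 5.07, 5.22 and 5.25 with ADBAQ. The ADBAQ arrays fell within the corn oil range, and the difference was 0.12 ± 0.15 with a 95% interval of -0.24 to 0.48 (adjusted p = 0.69). Hsp90b1 (GRP94), the ER member of the HSP90 family, had 0.081 ± 0.17 and a second probe at -0.046 ± 0.12. The lectin chaperones that hold glycoproteins gave 0.058 ± 0.11 for Calr and 0.14 ± 0.065 for Canx.

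Canx was one of 4 genes of the branch with separate groups: 2.30, 2.27 and 2.28 with corn oil against 2.32, 2.48 and 2.47 with ADBAQ, with ADBAQ replicate 1 barely above the corn oil arrays. A dimmer Canx probe gave 0.084 ± 0.079, with overlap and with ADBAQ replicate 1 the lowest array. Dnajc3 (P58IPK), a co-chaperone of BiP that restrains PERK, read 2.14, 2.14 and 2.13 with corn oil, with an SD of only 0.0077, and 2.24, 2.38 and 2.36 with ADBAQ. Its difference of 0.19 ± 0.060 (1.14-fold) had an adjusted p of 0.19. For Pdia6, a disulfide isomerase that also quiets the ER sensors, the arrays read 3.72, 3.83 and 3.83 against 3.85, 4.14 and 4.12.

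The difference of Pdia6 was 0.24 ± 0.096 (adjusted p = 0.25), and again replicate 1 was the lowest ADBAQ array. Dnajb9 (ERdj4), which holds IRE1 inactive with BiP, read 0.52, 0.16 and 0.49 with corn oil and 0.54, 0.67 and 0.64 with ADBAQ. Its brighter probe gave 0.23 ± 0.11 (adjusted p = 0.32) and its dimmer one -0.067 ± 0.11; without corn oil replicate 2 the brighter probe gave 0.11. The disulfide isomerases Pdia3 and Pdia4 had 0.058 ± 0.098 and 0.049 ± 0.068, and the co-chaperone Dnajb11 had -0.069 ± 0.13 and, at its dimmer probe, 0.13 ± 0.11.

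Herpud1, a membrane protein that organises ER-associated degradation, had a difference of the other sign, and its array values are given because of their size. It read 3.97, 3.78 and 4.37 with corn oil and 3.32, 3.48 and 3.82 with ADBAQ, so that 1 ADBAQ array lay above the lowest corn oil array. The difference was -0.51 ± 0.19 (1.42-fold lower, adjusted p = 0.24), and the other Herpud1 probe gave -0.51 ± 0.20. Its partners in the ubiquitin ligase complex of the ER membrane were nearly level, with 0.052 ± 0.069 for the ligase Syvn1 (HRD1) and 0.0022 ± 0.084 for its adaptor Sel1l. Their 95% intervals were -0.12 to 0.22 and -0.20 to 0.21. The dimmer probes gave 0.15 ± 0.090 for Syvn1 and 0.076 ± 0.085 for Sel1l.

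Of the small ER proteins that rise with BiP in many systems, Sdf2l1 had 0.21 ± 0.21, with 0.29 ± 0.23 and 0.31 ± 0.23 at its other probes, and Creld2 had -0.066 ± 0.24. Creld2 spread more than any other ER branch member in corn oil (SD 0.48, against 0.077 with ADBAQ). In all, 13 of the 18 measured genes of the branch had a positive difference, beside 47.7% of all genes. Separate groups were seen in 4 (22.2%), all higher with ADBAQ, beside 27.6% of all genes, and an unadjusted p under 0.05 in 3 (16.7%), beside 19.4%. The branch median was 0.058, which is 0.068 above that of all genes, a distance that scaling cannot alter. It was 0.089 with quantile normalization, 0.063 with normexp background correction and 0.037 to 0.15 when 1 array was left out.

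**Figure D2:**
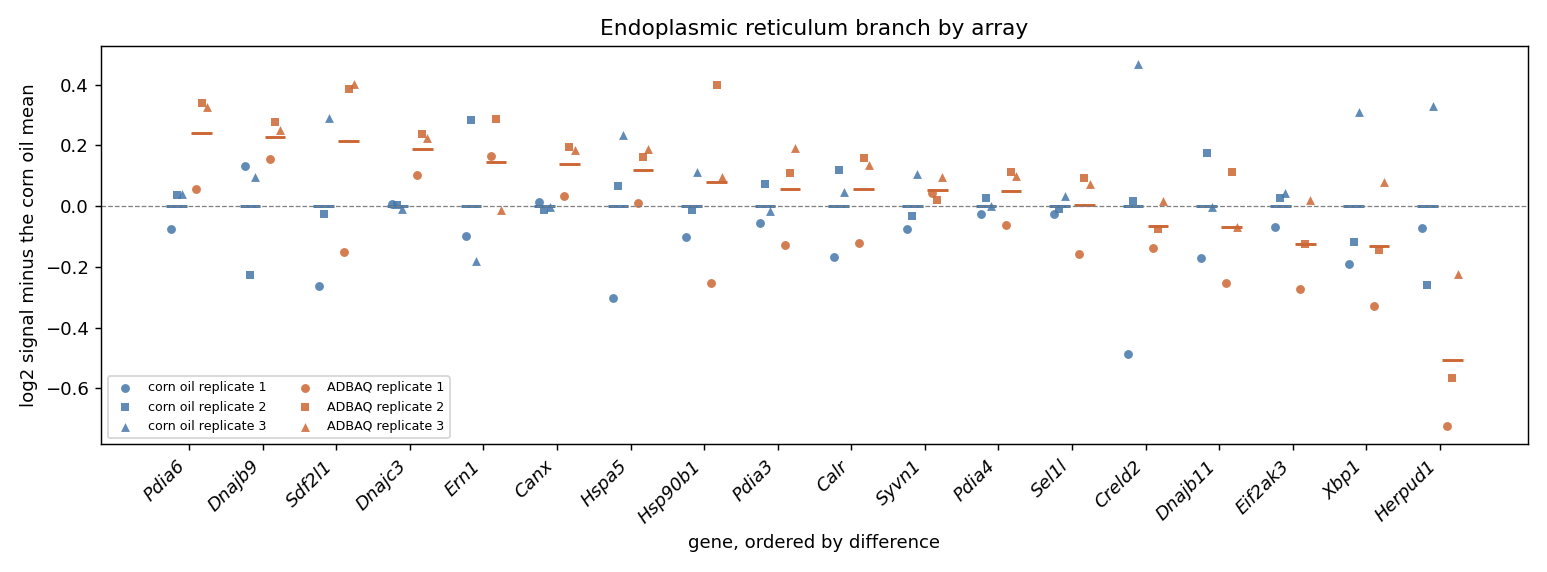
Log2 signal of each ER branch gene on each array relative to the mean of the 3 corn oil arrays; points are arrays and short lines are group means. Most group means lie within 0.25 of corn oil, Herpud1 lies lowest, and the circle for ADBAQ replicate 1 is the lowest ADBAQ point in 16 of 18 genes.

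For the heat shock branch, Hspd1 and Hspe1 are shown because these genes, which encode the mitochondrial chaperonin HSP60 and its cap HSP10, lie head to head and their promoter windows overlap, at chr9:64083988-64084287 (minus strand) and chr9:64084077-64084376 (plus strand). The same pair of overlapping heat shock elements, in capitals, stands in both windows.
Hspd1: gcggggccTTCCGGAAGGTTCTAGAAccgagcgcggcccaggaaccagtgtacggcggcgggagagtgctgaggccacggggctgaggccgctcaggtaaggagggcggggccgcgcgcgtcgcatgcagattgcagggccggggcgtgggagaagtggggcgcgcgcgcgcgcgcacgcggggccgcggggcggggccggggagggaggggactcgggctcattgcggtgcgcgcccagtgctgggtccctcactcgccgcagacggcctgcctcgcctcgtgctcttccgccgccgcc
Hspe1: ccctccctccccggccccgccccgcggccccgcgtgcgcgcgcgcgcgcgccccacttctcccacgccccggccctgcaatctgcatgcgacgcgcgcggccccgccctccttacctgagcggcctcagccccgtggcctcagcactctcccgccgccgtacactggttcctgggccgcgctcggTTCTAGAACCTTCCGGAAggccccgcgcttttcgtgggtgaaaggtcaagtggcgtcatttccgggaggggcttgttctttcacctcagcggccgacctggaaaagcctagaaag

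The pair did not give differences of 1 sign. Hspd1 read 6.36, 6.28 and 6.33 with corn oil and 6.40, 6.42 and 6.50 with ADBAQ, with no overlap and a difference of 0.12 ± 0.059 (95% interval -0.023 to 0.27, adjusted p = 0.32). Its 5 probes were all positive, the 4 dimmer ones from 0.088 to 0.19, and the groups were separate on 3 of the 5. Hspe1 overlapped, with -0.067 ± 0.072 at the brighter and -0.0067 at the dimmer probe, and turned positive without scaling and with normexp background correction. The difference between these genes was not tested.

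Hspa8 (HSC70), the constitutive HSP70 of the cytosol, read 7.57, 7.76 and 8.02 with corn oil and 7.46, 7.58 and 7.76 with ADBAQ. The groups overlapped and the difference was -0.19 ± 0.14 (95% interval -0.53 to 0.15, adjusted p = 0.49). The 7 other Hspa8 probes, all dimmer, gave -0.071 to 0.028. Its relatives Hspa4l and Hsph1 (HSP110), which exchange the nucleotide of HSP70, had 0.24 ± 0.11 and 0.085 ± 0.081. Hspa4l read -0.80, -0.69 and -0.82 with corn oil and -0.60, -0.31 and -0.67 with ADBAQ, groups that were apart by 0.015 (adjusted p = 0.30).

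At their brightest probes, both cytosolic HSP90 genes showed 1 high ADBAQ array and overlap between groups. Hsp90aa1, the inducible form, read 5.53, 5.45 and 5.56 with corn oil and 5.35, 5.41 and 5.84 with ADBAQ. ADBAQ replicate 3 was the highest of the 6 arrays and replicates 1 and 2 the lowest, for a difference of 0.022 ± 0.14 (adjusted p = 0.94). The 5 other Hsp90aa1 probes gave 0.090 to 0.33, and on 1 of the 6 probes all ADBAQ arrays lay above all corn oil arrays. Hsp90ab1, the constitutive form, had 0.048 ± 0.16, and its 4 other probes 0.082 to 0.24, with separate groups on 2 of the 5 probes. Probes of HSP70 and HSP90 genes can also catch close relatives and pseudogenes, so these values are uncertain as to the gene copy.

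Dnaja1, a J-protein partner of HSC70, had a difference of 0.10 ± 0.14, and Hspb1 (HSP25/27), a small heat shock protein that guards actin in injured tubules, had -0.068 ± 0.098. Of the 9 genes measured, 6 had a positive difference, 0 reached an unadjusted p under 0.05, beside 19.4% of all genes, and 2 (22.2%), Hspa4l and Hspd1, had groups that did not overlap, beside 27.6%. The median of the branch was 0.048.

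**Figure D3:**
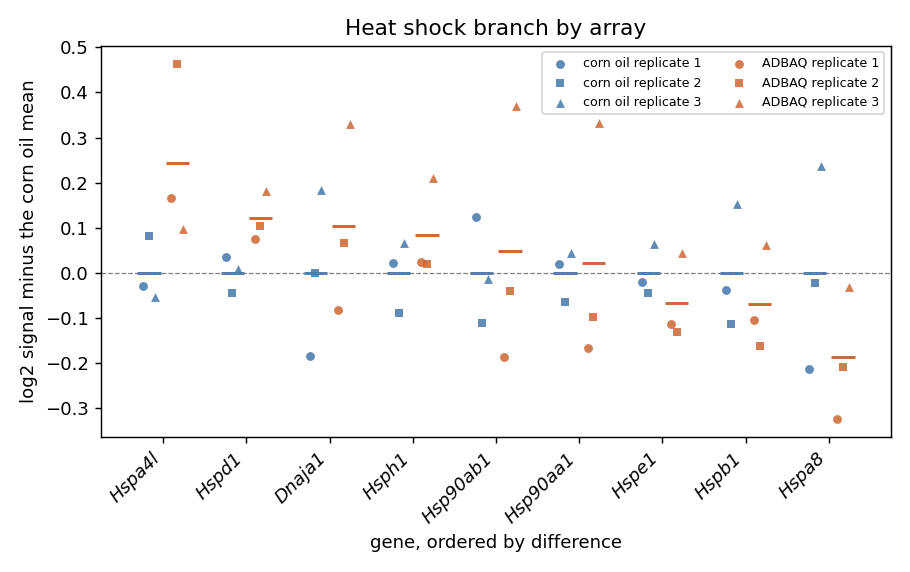
Log2 signal of each heat shock gene on each array relative to the mean of the 3 corn oil arrays; points are arrays and short lines are group means. ADBAQ replicate 3 (triangles) is the highest ADBAQ array in 8 of 9 genes, and the groups overlap in all but Hspa4l and Hspd1.

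How far the choice of probe matters is seen in the 19 members with more than 1 tested probe. In 14 of them all probes had the same sign, among them Cebpb, Herpud1, Hspd1, Sdf2l1 and both cytosolic HSP90 genes. The 14 also include Chac1, whose dimmer probe entered through the ADBAQ arrays alone, so its sign is no sign of agreement. In the other 5 (Dnajb9, Dnajb11, Eif2ak3, Hsp90b1 and Hspa8) at least 1 probe differed in sign from the brightest, always with differences under 0.25 in size. With the mean of each gene's tested probes in place of the brightest probe, 0 members passed limma's test and 8 had an unadjusted p under 0.05. For Chac1 that mean includes the dimmer probe.

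**Figure D4:**
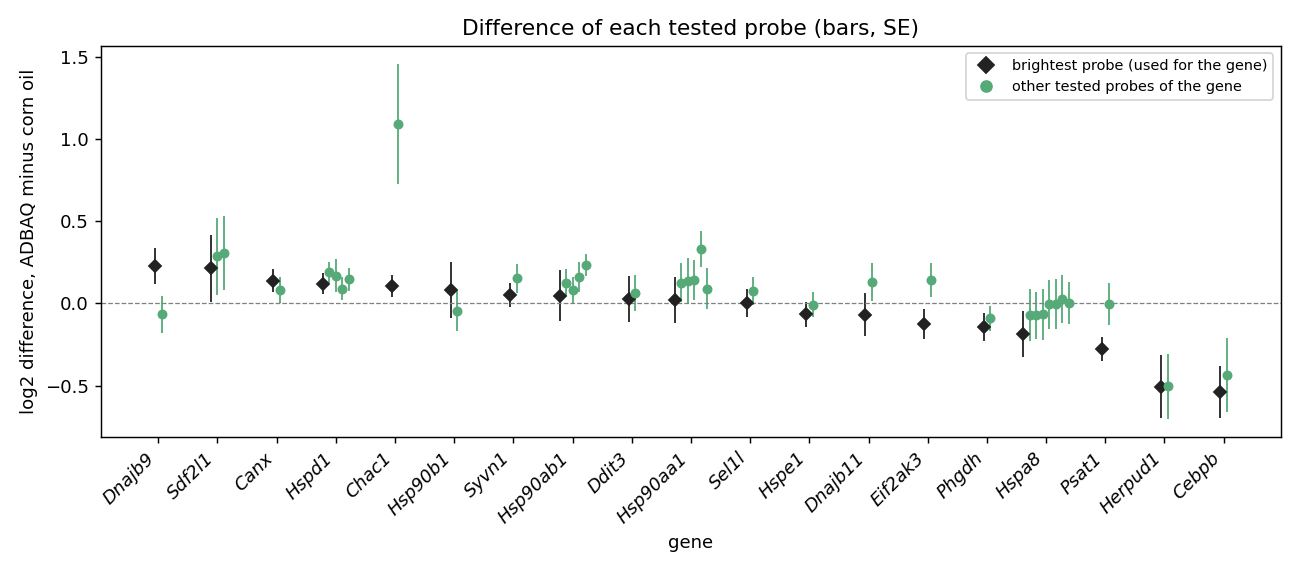
Difference in log2 signal, ADBAQ minus corn oil, for every tested probe of the 19 members with more than 1; diamonds are the brightest probe of a gene, circles its other probes, and bars are standard errors from limma. The dimmer Chac1 probe, plotted at 1.09, was not well above background on 1 corn oil array. It entered through the ADBAQ arrays, so its point and bar are description only. The brighter Chac1 probe lies at 0.11, and the 2 Herpud1 probes coincide.

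The arrays of each group differed among themselves in these genes. With 1 array per rat, a difference between rats cannot be told apart from one between arrays. ADBAQ replicate 1 was the lowest of its group in 29 of the 37 members, where it was the lowest for 40.6% of all genes tested. By branch this held for 8 of 10 ATF4 branch genes, 16 of 18 ER genes and 5 of 9 heat shock genes. ADBAQ replicate 3 was the highest of its group in 8 of the 9 heat shock genes, beside 38.4% of all genes. Corn oil replicate 1 was likewise the lowest of its group in 13 of 18 ER genes, beside 38.0% of all genes. Corn oil replicate 3 was the highest of its group in 6 of 9 heat shock genes and 10 of 18 ER genes, beside 32.4% of all genes. In the heat shock genes corn oil replicate 2 was the lowest of its group in 6 of 9, beside 30.1% of all genes. Measured as the median deviation of the ER genes from their own mean over the 6 arrays, the corn oil arrays stood at -0.11, -0.0080 and 0.032, and the ADBAQ arrays at -0.13, 0.11 and 0.094. For all genes these medians lay between -0.019 and 0.016. The lowest array of each group thus stood close to the other in the ER genes. The median SD of the members was 0.11 with corn oil and 0.14 with ADBAQ, against 0.11 and 0.099 over all genes.

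Further genes of the same pathways, 130 of them tested, gave a similar picture. None of them, 0 of 130, reached limma's adjusted threshold; 23 (17.7%) had an unadjusted p under 0.05 beside 19.4% of all genes, and the groups did not overlap in 35 (26.9%) beside 27.6%. Their median was 0.0054. By list, the share with separate groups ran from 13.3% (2 of 15 eIF2 kinases and regulators) to 46.2% (6 of 13 ER degradation genes, 5 higher and 1 lower). Of those 13 genes, 5 (38.5%) had an unadjusted p under 0.05. Whether the share of any list differs from that of all genes was not tested.

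Around ATF4, the 10 enzymes of amino acid and folate metabolism had 8 positive differences and a median of 0.15. Aldh1l2, a mitochondrial folate enzyme that ATF4 induces, had the smallest p among them and read -3.48, -3.34 and -3.21 with corn oil and -2.85, -2.71 and -2.77 with ADBAQ, groups well apart, with 0.57 ± 0.089 (1.48-fold, adjusted p = 0.073). The transaminase Got1, next by p though not by size, had 0.20 ± 0.063 (adjusted p = 0.19). Groups were separate in 4 of the 10 enzymes (40%), all higher with ADBAQ, beside 27.6% of all genes. An unadjusted p under 0.05 was seen in 4 (40%), beside 19.4%. Of 5 amino acid transporters in the test, Slc3a2, the heavy chain that anchors several transporters, had 0.16 ± 0.053 and the glutamine carrier Slc1a5 had 0.23 ± 0.097. Among 11 tRNA synthetases, 8 were positive and 3 (27.3%) had separate groups, beside 27.6% of all genes; Iars1, for isoleucine, had 0.30 ± 0.057 (adjusted p = 0.10) and Tars1, for threonine, 0.20 ± 0.084.

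Gdf15, a secreted stress cytokine that ATF4 and p53 can both induce, read -0.86, -0.61 and -0.94 with corn oil and -0.036, 0.33 and 0.58 with ADBAQ. All ADBAQ arrays lay above all corn oil arrays, with a difference of 1.09 ± 0.17 (2.13-fold, adjusted p = 0.073). Fgf21, another secreted target, was well above background on all 3 corn oil arrays and on 1 of 3 ADBAQ arrays, so no difference is given. Among the 15 eIF2 kinases, phosphatase subunits, exchange factors and further regulators, 8 were positive and the median was 0.048. Ddit4 (REDD1), an inhibitor of mTORC1, stood at the low end with -1.06 ± 0.20 (adjusted p = 0.10) and no overlap between groups, and Eif2b5, a subunit of the exchange factor for eIF2, had 0.15 ± 0.058 (adjusted p = 0.23).

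Around the ER, Derl3, a membrane protein of ER-associated degradation that is induced through XBP1, had the largest positive difference of these genes. It read -1.06, -0.97 and -0.87 with corn oil and -0.25, 0.75 and 0.62 with ADBAQ, well separated and with replicate 1 again nearest to corn oil, for a difference of 1.34 ± 0.27 (2.53-fold, adjusted p = 0.11). Ube2g2, a ubiquitin-conjugating enzyme of the same pathway, had -0.22 ± 0.067 (adjusted p = 0.17). Atf6, the third ER sensor, was lower on every ADBAQ array: 1.41 to 1.51 with corn oil against 1.17 to 1.22, a difference of -0.27 ± 0.057 (1.21-fold, adjusted p = 0.12). Wfs1, a regulator of ATF6, had 0.24 ± 0.11. In the folding list of 16 genes the median was 0.021, with -0.26 ± 0.077 for Sil1, the nucleotide exchange factor of BiP, and -0.14 ± 0.050 for Erp44, which retains client proteins. The 11 genes of ER translocation had a median of -0.027 and a range of -0.12 to 0.18, with 0.18 ± 0.073 for Ssr1 and -0.11 ± 0.066 for Sec61g, subunits of the translocon and its partner complex.

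Among 24 further heat shock genes, 9 were positive, the median was -0.019 and 5 (20.8%) had separate groups, beside 27.6% of all genes. The HSP90 co-chaperone Cdc37 had -0.19 ± 0.054 (adjusted p = 0.16) and the ubiquitin ligase Stub1 (CHIP) had -0.17 ± 0.054 (adjusted p = 0.18). The 8 subunits of the cytosolic chaperonin had a median of -0.064, with -0.14 ± 0.072 for Cct6a and -0.11 ± 0.057 for Cct8. The 6 mitochondrial chaperones and proteases had one of 0.050, with 0.19 ± 0.077 for Dnaja3 and 0.11 ± 0.069 for Hspa9.

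**Figure D5:**
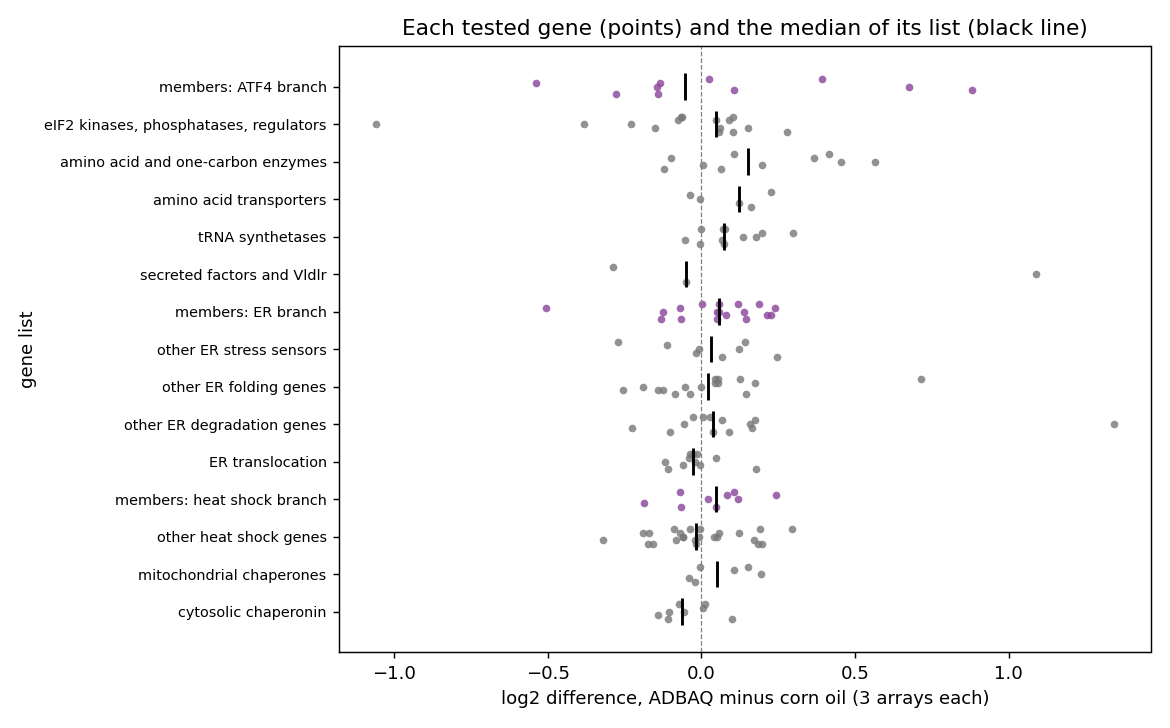
Difference in log2 signal, ADBAQ minus corn oil, of each tested gene in the member branches (purple) and in the further pathway lists (grey); black lines are list medians. List medians lie between -0.064 and 0.15, and single genes such as Derl3 (1.34), Gdf15 (1.09) and Trib3 (0.88) lie far from the median of their list.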

How the data were processed

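Renal cortex RNA of 6 rats, 3 per group, was read on 1-colour Agilent arrays. The authors' deposited scanner files give each spot's background-subtracted processed signal intensity on a linear scale, made with Agilent Feature Extraction 10.7.1.1 per the file headers (10.7 per the submitters' processing notes), the median signal and background intensities, and flags (other units) that mark control spots, outliers, saturation and detection above background. The authors' deposited series table holds, checked against the scanner values, a ratio of the processed signal to a single constant per array, linear and not centred, with column medians of 0.111 to 0.114; the constant differed from the array's 75th percentile by at most 0.0858%.

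Here 1319 control spots and 73 probes flagged as outliers were left out, and log2 signals were taken minus each array's 75th percentile. The normexp alternative started from the median signal and background intensities instead of the processed signal, and added an offset of 50. A probe was tested where either group had it well above background in all 3 rats. Accessions were matched to RefSeq genes (GRCr8, names only), and each gene was represented by its brightest tested probe, which gave 12007 genes. The test was that of limma 3.58.1 under R 4.3.3 (lmFit, eBayes, two-sided, no covariates, Benjamini-Hochberg over all genes). Python 3.11.15, pandas 2.3.3, matplotlib 3.10.9 and the R package data.table (version 1.17.8) were also used. On simulated data with 200 changed genes per run, the fit recovered 41.8% of changes of 0.5 log2 units. It recovered 77.2% of changes of 1 unit and 91.8% of changes of 2 units, so small changes were often missed. An exact permutation of 3 against 3 cannot go below p = 0.1. The labels give replicate numbers, and the series text states 3 biological replicates per group, taken here as separate rats.

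The members and gene lists were chosen with earlier results of these data known. Array values are given for members whose groups do not overlap and for Atf4, Ddit3, Xbp1, Hspa5, Hspa8 and Hsp90aa1, and of each further list up to 2 genes with the smallest p are named. Promoters came from RefSeq (GRCr8).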

Additional observations from a re-analysis of the deposited data

How the results depend on the processing

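The count of 0 members past limma's threshold held under every alternative except no scaling between arrays, where the median of all genes moved to 0.152 and 1 ATF4 branch gene (Chac1), 2 ER genes (Dnajc3 and Canx) and 1 heat shock gene (Hspd1) passed, with branch medians of 0.11, 0.22 and 0.21. The counts of genes higher and lower over the whole array, 27 and 8, were 1027 and 54 without scaling, 66 and 77 with normexp, 72 and 84 with variances that were trended on intensity and robust, 21 and 4 without the detection filter, 11 to 25 and 3 to 10 when 1 array was left out, and 0 and 0 when replicate number entered as a block; there 2266 genes and 9 members had an unadjusted p under 0.05. Deviations of same-numbered arrays correlated at 0.0094, 0.16 and 0.035, and those of differently numbered arrays at -0.16 to 0.13. The labels do not say that the numbers pair rats, and with 3 arrays a group these correlations cannot decide it. The causes of these changes were not tested. Of the 37 members, 17 kept their sign under all alternatives. Without scaling the sign turned for Atf4 (0.022), Psph (0.029), Phgdh (0.019), Eif2ak3 (0.036), Xbp1 (0.032), Dnajb11 (0.093), Creld2 (0.097), Hspe1 (0.096) and Hspb1 (0.094). With normexp it turned for Pdia4 (-0.029), Hsp90b1 (-0.0020), Hsph1 (-0.0086), Hspe1 (0.032), Hspb1 (0.013) and Hsp90ab1 (-0.10). It turned with quantile normalization for Sel1l (-0.00042) and with the mean of probes for Eif2ak3 (0.0093) and Dnajb11 (0.031). When 1 array was left out, values that crossed 0 ran from -0.051 to 0.16 (Ddit3), -0.031 to 0.24 (Hspa5), -0.24 to 0.023 (Xbp1), -0.0092 to 0.15 (Pdia3), -0.16 to 0.022 (Dnajb11), -0.026 to 0.15 (Calr), -0.078 to 0.25 (Hsp90b1), -0.31 to 0.17 (Creld2), -0.042 to 0.082 (Sel1l), -0.0084 to 0.20 (Dnaja1), -0.13 to 0.0079 (Hspb1), -0.11 to 0.16 (Hsp90ab1) and -0.13 to 0.12 (Hsp90aa1). A further 13 members kept their sign but moved by over 1.5 times: Atf3 (0.45 to 0.98), Atf4 (-0.19 to -0.076), Psph (-0.19 to -0.089), Dnajb9 (0.11 to 0.29), Eif2ak3 (-0.20 to -0.053), Ern1 (0.055 to 0.29), Sdf2l1 (0.081 to 0.39), Syvn1 (0.015 to 0.11), Pdia4 (0.018 to 0.10), Hspa4l (0.13 to 0.32), Hspa8 (-0.29 to -0.069), Hsph1 (0.022 to 0.12) and Hspe1 (-0.12 to -0.034). Branch medians then ran from -0.087 to 0.011 (ATF4), 0.022 to 0.14 (ER) and -0.11 to 0.12 (heat shock). The smallest adjusted p of any member when 1 array was left out was 0.078, for Trib3.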
